A study of Mus musculus with 8 samples.

Results

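Genomic imprinting leaves a gene active on only the maternally or the paternally inherited chromosome, and 44 mouse genes under this control, coding and noncoding, were followed here in the brain RNA of C9-BAC and wild-type mice. They were listed as known imprinted genes by a rule that names no measured value, but with earlier results of these data known. Of these, 42 were matched through RefSeq accessions to a row of a table of 15978 rows. H19 and Phlda2, both of the Igf2-Kcnq1ot1 region on chromosome 7, could not be matched and have no value here. The study sequenced total RNA, without poly(A) selection and with strand kept, from the brains of 8 male mice of a mixed SJL/Bl6 background. The C9-BAC group, 5 mice, carried human C9ORF72, with 500 copies of the G4C2 repeat, on a bacterial artificial chromosome (BAC), and the 3 others were wild-type. G4C2 expansions in C9ORF72 cause amyotrophic lateral sclerosis and frontotemporal dementia in people, and the comparison asks what the transgene does to the brain transcriptome. The sources used here do not give age, brain region, litter or the number of transgenic lines. Each sample is taken as 1 mouse, though no label says so. If that is wrong, the spread behind the p-values may be technical.

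Imprinted genes lie in clusters, each controlled by a stretch of DNA whose methylation differs between the alleles from the egg or sperm on. A long noncoding RNA made from the unmethylated allele often silences neighbours on the same chromosome, as Kcnq1ot1, Airn and the antisense end of Snhg14 do. In brain, imprinted genes are known for roles in feeding, maternal care and growth. Loss of the maternal UBE3A copy causes Angelman syndrome, and loss of the paternal SNRPN to NDN genes causes Prader-Willi syndrome.

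The file holds 1 mean normalized count, 1 log2 fold change and 1 standard error per gene for the whole comparison, from DESeq2, so values of single mice are not shown. Every value of these kinds below is from the authors' deposited table. Signs are written as deposited, because the headers leave the numerator of the fold change unnamed. A Wald 95% interval spans 1.96 standard errors on either side. The highest standard error in the table is 0.110014, and those of rows with low counts are the smallest (median 0.0516 under a count of 10). Values shrunk toward 0 would have that form, and whether shrinkage was applied is unstated in the headers. Brain identity was plain in the authors' deposited table: all 8 neuronal markers had mean normalized counts of 1588 or more, and the 4 astrocyte, 4 oligodendrocyte and 4 microglial markers had counts from 92.7 (Mog) to 9162. Of 8 markers of liver, pancreas, muscle, kidney and skin, 3 had a row, with counts of 1.85 to 167.2. The mouse's own C9orf72 gene (chromosome 4, 35191285 to 35226153), with 311.2 mean normalized counts, stood at -0.08 on the log2 scale, standard error 0.10, in the authors' deposited table (interval -0.27 to 0.12, p = 0.454, DESeq2 adjusted p = 0.9997). This row does not check the human transgene, which was not analysed here.

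The Snurf and Snrpn rows are the clearest case of member rows that share sequence, and their start sites are shown first. SNURF is a small protein and SNRPN a core protein of neuronal small nuclear ribonucleoproteins, and a bicistronic messenger can encode both. The start that they share and an upstream Snrpn start (RefSeq has 3 such) lie 135026 bases apart on chromosome 7. The 250 bases before each start are printed from RefSeq (GRCm38.p6, the assembly also called mm10), 5′ to 3′ on the strand of the gene, with capitals marking CG dinucleotides, the sites of DNA methylation. The windows before Nnat and Dlk1, the members with the next smallest p-values, follow for comparison. They are chr7:60005200-60005449 (minus strand), chr7:60140226-60140475 (minus strand), chr2:157559828-157560077 (plus strand) and chr12:109452573-109452822 (plus strand). The Dlk1 window precedes a start that lies inside the bounds of the gene (109452485 to 109463336), so the window lies within them too.
Snurf and Snrpn, shared start: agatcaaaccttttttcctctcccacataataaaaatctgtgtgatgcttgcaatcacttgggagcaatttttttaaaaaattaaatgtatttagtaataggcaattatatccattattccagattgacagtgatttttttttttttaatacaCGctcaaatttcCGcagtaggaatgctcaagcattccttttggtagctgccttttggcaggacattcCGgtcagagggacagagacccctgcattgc
Snrpn, upstream start: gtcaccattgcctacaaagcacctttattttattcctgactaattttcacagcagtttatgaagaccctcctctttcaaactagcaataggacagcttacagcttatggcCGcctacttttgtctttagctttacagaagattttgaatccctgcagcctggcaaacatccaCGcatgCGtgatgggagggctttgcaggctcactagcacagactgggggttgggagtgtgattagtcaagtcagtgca
Nnat: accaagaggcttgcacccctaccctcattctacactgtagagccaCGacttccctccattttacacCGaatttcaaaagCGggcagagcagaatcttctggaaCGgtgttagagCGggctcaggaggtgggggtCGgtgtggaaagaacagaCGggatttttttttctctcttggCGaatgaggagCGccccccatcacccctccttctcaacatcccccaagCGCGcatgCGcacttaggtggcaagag
Dlk1: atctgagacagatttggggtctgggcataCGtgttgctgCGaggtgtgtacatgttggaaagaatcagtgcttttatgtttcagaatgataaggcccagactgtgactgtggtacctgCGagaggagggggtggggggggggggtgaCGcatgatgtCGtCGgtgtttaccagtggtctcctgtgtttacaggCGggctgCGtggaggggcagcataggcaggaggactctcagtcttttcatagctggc
The printed stretches held 3 CG sites before the shared start, 3 before the upstream start, 12 before Nnat and 8 before Dlk1. GC content was 36.8%, 46.0%, 54.8% and 54.8% in that order. The letters TGCCGC, recognised when methylated by ZFP57, a protein that maintains imprints, were searched on both strands of the 300 bases from 250 before to 50 after each RefSeq start. They were present in 14 of 52 distinct windows of 35 member genes (26.9%) and in 11.6% of all 32817 windows. Windows that differ in any coordinate count separately, so nearly identical Mest windows (first bases 30737800 and 30737803) both count as matches. Member windows also held more CG sites, with a median of 13.5 against 7. Zdbf2 had 3 matches at its first start, while Nnat and the shared Snurf and Snrpn start had 1 each, outside the printed bases. A match describes letters only and is not a measured binding site.

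None of the 42 imprinted genes differed between the genotypes at a DESeq2 adjusted p of 0.05 in the authors' deposited table, where 0 of 15944 tested rows (0%) passed. At an unadjusted p under 0.05, a description and no call, there were 3 of 42 (7.14%) beside 1.50% of all tested rows. Among rows with a count of at least 100 there was 1 of 28 (3.57%), Nnat, beside 1.60% of all such rows. Positive rows under 0.05 were 0.659% of the table, and none of them was imprinted. The 3 were Snrpn, Nnat and Dlk1, all paternally expressed and all negative, and negative rows under 0.05 made up 0.840% of the table. Under 0.1 there were 7, again all negative, beside 3.65% of tested rows. Negative fold changes were given for 31 of the 42 (73.8%), beside 52.6% of all rows. The list was chosen with earlier results of these data known, so these shares are descriptions only. The median log2 fold change was -0.03 for the imprinted genes and -0.004 for all rows, and the range was -0.31 (Snrpn) to 0.12 (Igf2). In the authors' deposited table, 33 of the 42 (78.6%) lay within 0.1 of 0, beside 82.6% of all rows. Of the 9 members beyond it 7 were negative and 2 positive, while of all rows beyond it 1482 were negative and 1298 positive. The inhibitory neuron genes Gad1 and Gad2 had negative values of like size, with Gad1 at -0.19 and Gad2 at -0.19 in the authors' deposited table (standard errors 0.10 and 0.10, p = 0.0694 and 0.0631). They were the lowest of the 8 neuronal markers, of which 5 were positive, Slc17a7 at 0.04 and Rbfox3 at 0.10 among them. Sst (0.09) and Npy (0.06), counted below as hypothalamic markers, were positive, and inhibitory neuron genes as a class were not tested. The part of neuron types in the members' values was not tested. The plot of members by cluster shows that 39 of the 42 intervals include 0.

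**Figure D1:**
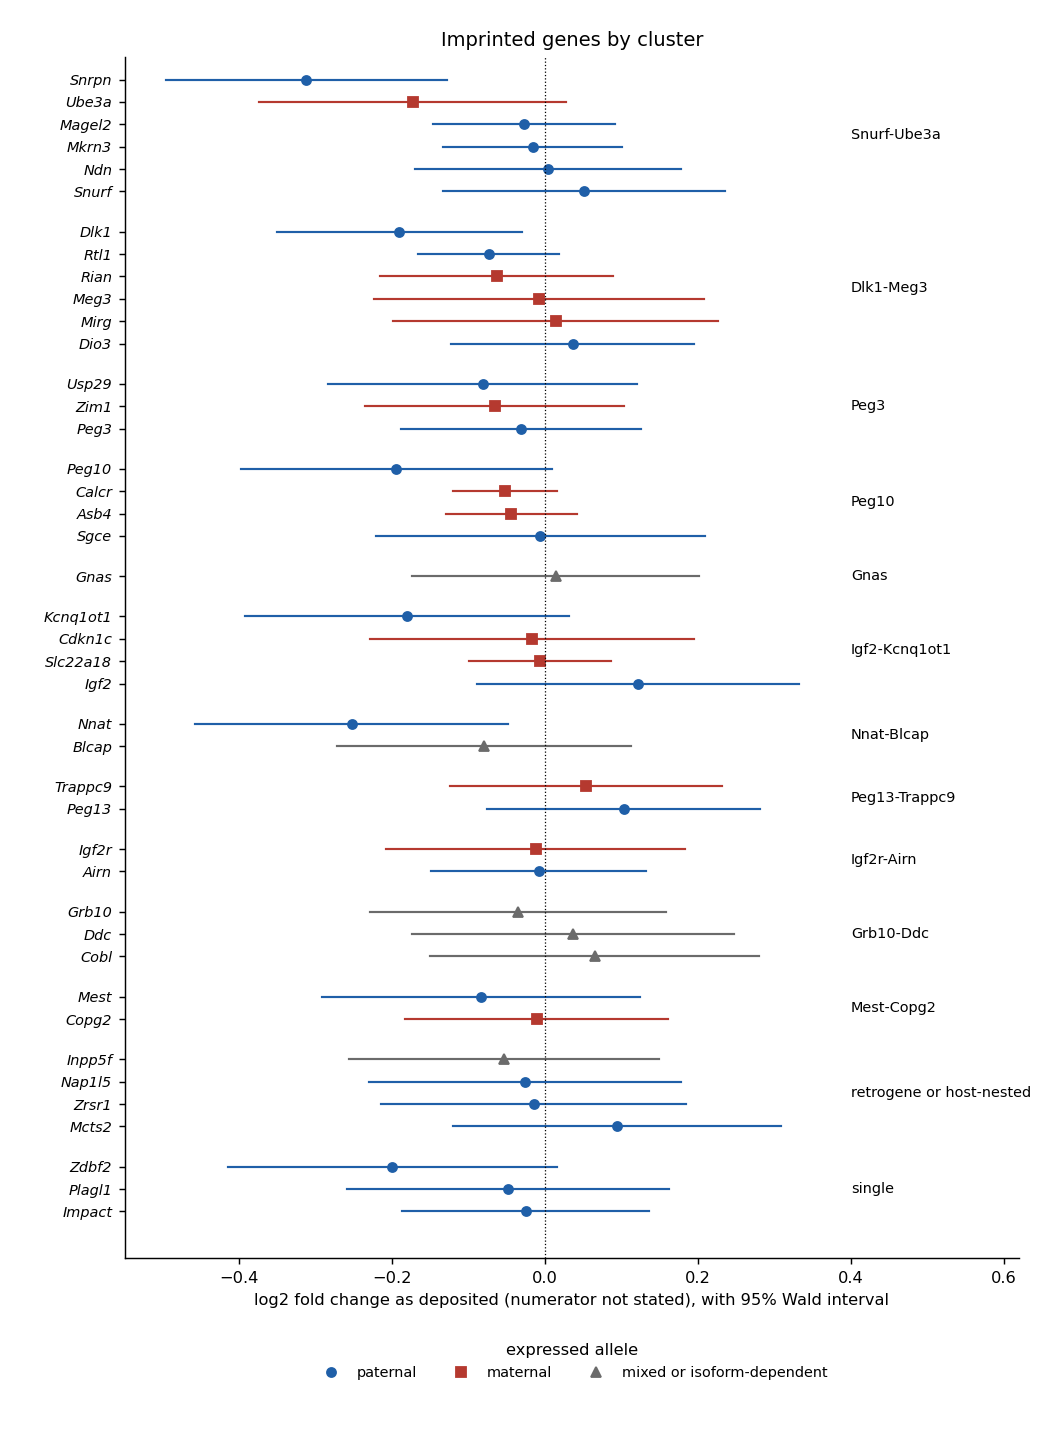
Log2 fold change as deposited (x axis) of the 42 imprinted genes, grouped by cluster, with 95% Wald intervals as bars. Symbols give the allele generally known to be expressed, which was not measured here. Only the intervals of Snrpn, Dlk1 and Nnat lie wholly below 0, and none lies wholly above it.

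Levels spanned 4 orders of magnitude. Meg3, a maternally expressed noncoding RNA, reached 27855 mean normalized counts in the authors' deposited table, which was 33.7% of the sum over the imprinted genes, and Slc22a18, an organic cation transporter gene, had 2.72. Counts under 10 were given for 8 genes: Dio3, Rtl1, Airn, Magel2, Mkrn3, Calcr, Asb4 and Slc22a18. Divided by the length of the longest matched transcript, Gnas was first with 2247 counts per kb, followed by Meg3 (1915), Nap1l5 (1073), Impact (903.8), Nnat (647.5) and Peg3 (614.7). Asb4 (1.12), Calcr (1.29) and Rtl1 (1.51) were last. Rian had no matched length, and the Snurf accession matched only a short model of 216 bases, so neither was ranked. In the plot of abundance, the 7 members below -0.1 had counts from 17.9 (Dlk1) to 5131 (Kcnq1ot1). The 8 members under a count of 10 all lay within 0.1 of 0, as did 98.1% of all rows under 10.

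**Figure D2:**
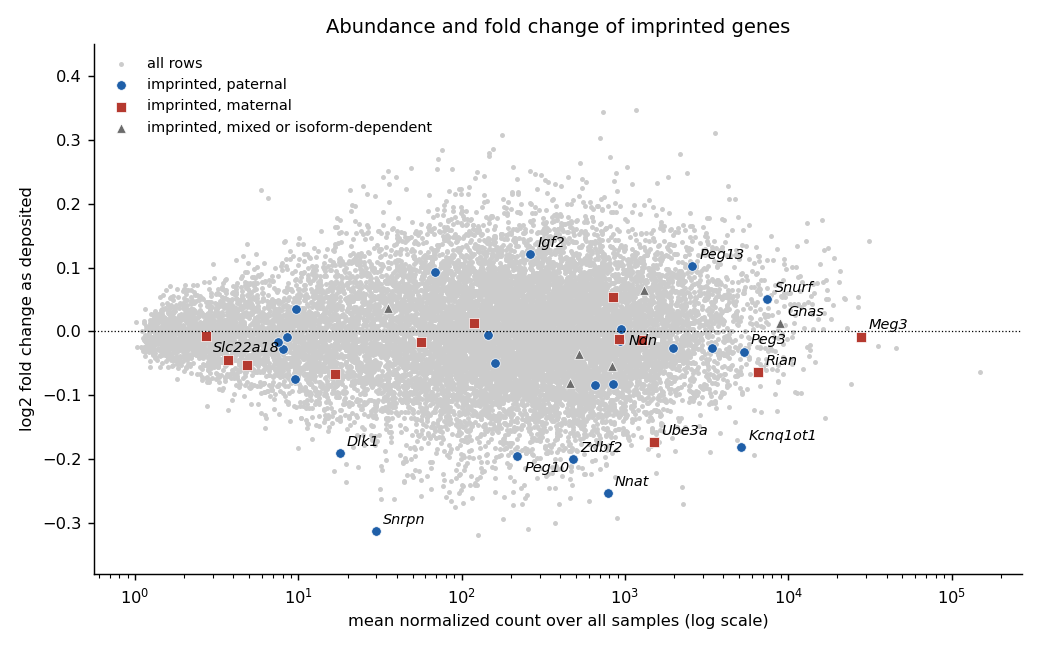
Mean normalized count (x axis, log scale) and log2 fold change as deposited (y axis) for all 15978 rows in grey and the 42 imprinted genes. Symbols give the allele generally known to be expressed. Snrpn, with a count of 29.9, lies near the lower edge of all rows, and Snurf, with 7448, lies above 0.

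In the Snurf-Ube3a cluster on chromosome 7, 4 of 6 genes had negative and 2 had positive fold changes, with a median log2 value of -0.02 in the authors' deposited table. The Snrpn row (59982495 to 60450177, minus strand) held 29.9 mean normalized counts. Its log2 fold change was -0.31, standard error 0.09, in the authors' deposited table (interval -0.50 to -0.13, p = 0.00086, DESeq2 adjusted p = 0.9997). That p was the 4th smallest of all tested rows. Snurf (59982495 to 60005199, minus strand) lies wholly inside it and reached 7448 counts, with 0.05 on the log2 scale, standard error 0.09, in the authors' deposited table (interval -0.13 to 0.23, p = 0.592, DESeq2 adjusted p = 0.9997). The Snrpn row thus held 0.399% of the counts of both rows. Reads from shared exons fit either row, and the sources used here do not give how they were divided. The count and fold change of the Snrpn row are therefore not taken as those of all Snrpn RNA. The difference between the rows was not tested. The bounds of Snhg14, a long host of small nucleolar RNAs on the same strand, cover the Snrpn row over all its 467683 bases and the Snurf row over its 22705.

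Ube3a, the ubiquitin ligase gene expressed from the maternal allele in neurons, had a count of 1513 and stood at -0.17 in the authors' deposited table (log2 scale, standard error 0.10, interval -0.37 to 0.03, p = 0.0912, DESeq2 adjusted p = 0.9997). It lies at 59228750 to 59310837 on the plus strand, and its paternal copy is silenced by transcription of Snhg14 from the other strand. Snhg14 had 2 rows in the authors' deposited table, of counts 650.9 and 380.4, with log2 fold changes of -0.20 and -0.21 (standard errors 0.11 and 0.11, p = 0.0577 and 0.0562). Its bounds overlap those of Ube3a by 38101 bases, and if counting ignored strand their reads cannot be told apart. The Snhg14 rows and Ube3a had values of the same sign, and none passed. The bounds used are those of the whole Snhg14 gene, so neither row is known to measure the part antisense to Ube3a. Ipw, another noncoding RNA of the domain, was at 0.002 with a count of 3396 in the authors' deposited table.

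The intronless genes at the far end of this cluster had values near 0. Ndn, which encodes necdin, a MAGE family protein of postmitotic neurons, was at 0.004 (log2) with a count of 943.5 in the authors' deposited table. Its relative Magel2 was at -0.03 with a count of 7.99, and the ring finger gene Mkrn3 at -0.02 with a count of 7.51, in the authors' deposited table. Among the 13 rows inside the cluster bounds, 4 were positive and 9 negative, and only Snrpn was under 0.05. Of 9 unimprinted neighbours, 3 were positive and 6 negative with a median of -0.07, led by the GABA-A receptor subunit gene Gabrg3 (-0.19, p = 0.0749) and Nipa2 (-0.16, p = 0.113) in the authors' deposited table.

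**Figure D3:**
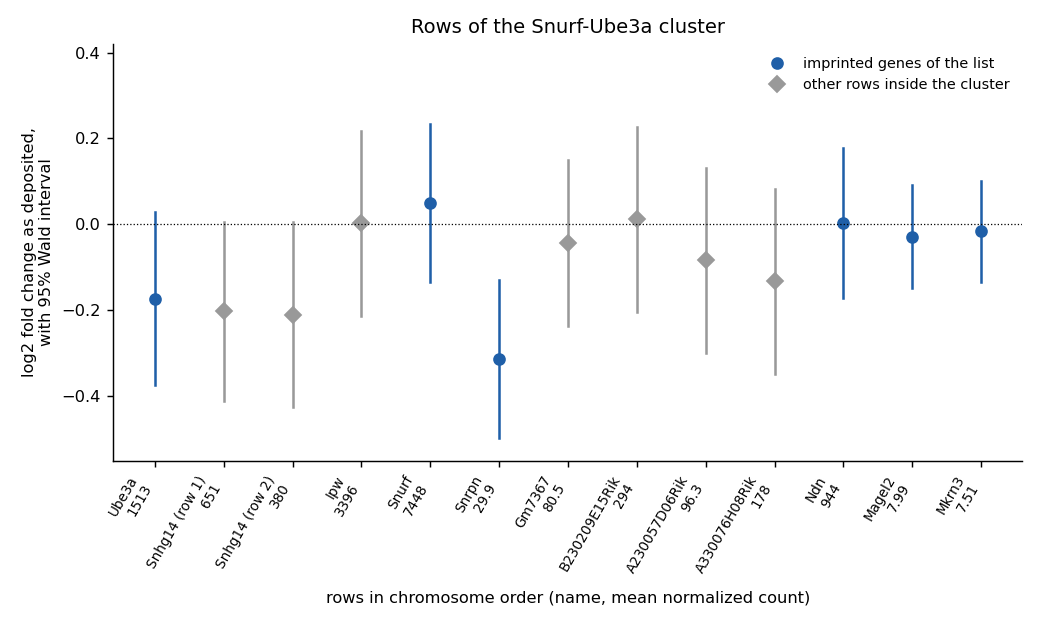
Log2 fold change as deposited with 95% Wald interval (y axis) for the 13 rows inside the Snurf-Ube3a cluster in chromosome order (x axis, each with its mean normalized count). Ube3a, both Snhg14 rows and Snrpn lie between -0.31 and -0.17, while Snurf, Ipw and Ndn lie between 0.002 and 0.05.

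The Dlk1-Meg3 cluster on chromosome 12 pairs paternally expressed coding genes with maternally expressed noncoding RNAs. Dlk1 (109452485 to 109463336, plus strand), a membrane protein related to Notch ligands and found on some hypothalamic and monoaminergic neurons, was at -0.19 on the log2 scale, standard error 0.08, with a count of 17.9 in the authors' deposited table (interval -0.35 to -0.03, p = 0.0193, DESeq2 adjusted p = 0.9997). Rtl1, a retrotransposon-derived gene read on the minus strand from 109564900 to 109604418, was at -0.07 with a count of 9.57 in the authors' deposited table (log2 scale, standard error 0.05, interval -0.17 to 0.02, p = 0.115, DESeq2 adjusted p = 0.9997). Dio3, the deiodinase gene that inactivates thyroid hormone, was at 0.04 with a count of 9.71 in the authors' deposited table.

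The noncoding RNAs of the same cluster had values close to 0. Meg3 was at -0.008, standard error 0.11, in the authors' deposited table (interval -0.22 to 0.21, p = 0.940, DESeq2 adjusted p = 0.9997). Rian, a host of box C/D small nucleolar RNAs with a count of 6521, was at -0.06, standard error 0.08, in the authors' deposited table (interval -0.22 to 0.09, p = 0.415, DESeq2 adjusted p = 0.9997). Mirg, a microRNA host, was at 0.01 with a count of 118.4. These 3 are read from the maternal allele, on the strand opposite to Rtl1, which Meg3 overlaps by 6830 bases and Rian by 474. RefSeq places 10 microRNA hairpins inside Mirg, 3 inside Rian and 13 on the opposite strand within the bounds of Rtl1. Mature microRNAs were not measured. Shown here are the products for which the locus is known: miR-127-3p and miR-433-3p, made antisense to Rtl1, and the only pair inside Mirg with a common seed, among 19 mature sequences with 18 seeds. Capitals mark the seed, bases 2 to 8.
mmu-miR-127-3p: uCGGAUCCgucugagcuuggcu
mmu-miR-433-3p: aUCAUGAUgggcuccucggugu
mmu-miR-453: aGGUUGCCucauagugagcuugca
mmu-miR-496a-5p: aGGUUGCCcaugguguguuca

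All 3 genes of the Peg3 cluster on chromosome 7 had negative values, with a median log2 value of -0.07 in the authors' deposited table. Peg3, a zinc finger protein gene linked to maternal behaviour, was at -0.03 with a count of 5344 (interval -0.19 to 0.13). Usp29, a ubiquitin protease gene that starts next to Peg3 on the opposite strand, was at -0.08 with a count of 838.9 in the authors' deposited table. Zim1, a maternally expressed zinc finger gene, was at -0.07 with a count of 16.6. Each interval included 0.

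The 4 genes of the Peg10 cluster on chromosome 6 were negative too, with a median of -0.05. Peg10 (4747306 to 4760517, plus strand), a retrotransposon-derived gene that makes proteins related to viral Gag and Pol, was at -0.19 on the log2 scale, standard error 0.10, with a count of 219.2 in the authors' deposited table (interval -0.40 to 0.008, p = 0.0603, DESeq2 adjusted p = 0.9997). Sgce, the epsilon-sarcoglycan gene that is mutated in myoclonus dystonia and starts back to back with Peg10, was at -0.006 with a count of 145.4 in the authors' deposited table. The calcitonin receptor gene Calcr (-0.05, count 4.85) and Asb4 (-0.04, count 3.68), an ankyrin repeat gene of the hypothalamus, were scarce. Of 7 other rows inside these bounds, 3 were positive and 4 negative.

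Gnas on chromosome 2 encodes the stimulatory G protein subunit and several other products that start at alternative promoters with different imprints. Its single row joined these transcripts, with 8870 counts and a value of 0.01 (interval -0.17 to 0.20) in the authors' deposited table. Changes of a single product cannot be read from it. Its antisense row, Gnasas1, had 2.91 counts.

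In the Igf2-Kcnq1ot1 region on chromosome 7, 4 of 6 genes had a row, and the values went both ways. Kcnq1ot1 (143213111 to 143296547, minus strand), the long noncoding RNA that silences the distal genes on the paternal chromosome, was at -0.18 on the log2 scale, standard error 0.11, with a count of 5131 in the authors' deposited table (interval -0.39 to 0.03, p = 0.0951, DESeq2 adjusted p = 0.9997). Its target Cdkn1c, an inhibitor of cyclin-dependent kinases, was at -0.02 with 56.5 counts and Slc22a18 at -0.007 in the authors' deposited table. Kcnq1, within which Kcnq1ot1 is read antisense, was at -0.07 with a count of 7.96 in the authors' deposited table.

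Igf2, a fetal growth factor gene made in adult brain mainly by choroid plexus, meninges and vessels, had the most positive value of the imprinted genes, 0.12 with a count of 262.3 and an interval of -0.09 to 0.33 in the authors' deposited table (standard error 0.11, p = 0.259, DESeq2 adjusted p = 0.9997). Beside it, 9 of 12 meningeal and fibroblast markers and 11 of 12 endothelial and mural cell markers were positive in the authors' deposited table, with medians of 0.07 and 0.06. Of all rows, 47.4% were positive. Tek, 1 of the 11, was at 4.58e-05, and no marker of either list had an unadjusted DESeq2 p under 0.05. Of 10 choroid plexus markers with a row 5 were positive, and Ttr, the most typical of them, had a count of 33.2. In bulk tissue, fewer cells of a type and less RNA per cell cannot be told apart, and the part of these cells in the Igf2 value was not tested. Igf2r, the receptor gene that clears IGF2, was at -0.01, standard error 0.10, with a count of 1267 in the authors' deposited table (interval -0.21 to 0.18, p = 0.899, DESeq2 adjusted p = 0.9997). Its antisense silencer Airn was at -0.009, standard error 0.07, with a count of 8.50 in the authors' deposited table (interval -0.15 to 0.13, p = 0.905, DESeq2 adjusted p = 0.9997).

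Outside the larger clusters, Nnat (157560078 to 157562525 on chromosome 2, plus strand) stood lowest. It encodes neuronatin, a small membrane protein of developing and hypothalamic neurons, and lies in an intron of Blcap. Its log2 fold change was -0.25, standard error 0.10, with a count of 785.4 in the authors' deposited table (interval -0.46 to -0.05, p = 0.0152, DESeq2 adjusted p = 0.9997), and its p ranked 54th of all tested rows. Blcap, read from the opposite strand across it, was at -0.08, standard error 0.10, with a count of 458.9 in the authors' deposited table (interval -0.27 to 0.11, p = 0.414, DESeq2 adjusted p = 0.9997). Zdbf2 (63200358 to 63314576 on chromosome 1, plus strand), a zinc finger gene active in hypothalamic feeding control, was at -0.20 on the log2 scale, standard error 0.11, with a count of 478.6 in the authors' deposited table (interval -0.42 to 0.01, p = 0.0683, DESeq2 adjusted p = 0.9997).

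Nnat, Dlk1, Peg10, Zdbf2, Calcr, Asb4, Magel2 and Ndn are known to be well expressed in the hypothalamus. Of 19 hypothalamic markers, 11 had a row, with a median of -0.03 in the authors' deposited table. Negative values were given for 9 of these, Nnat itself included (81.8%, beside 52.6% of all rows). Nkx2-1, Oxt and Avp, also negative, had counts of only 1.96, 2.91 and 4.39. The 2 positive markers were abundant, Sst (0.09, count 845.7) and Npy (0.06, count 642.1). Baiap3, a gene of dense core vesicle trafficking, was at -0.20 (standard error 0.09, p = 0.0294) beside Nnat in the authors' deposited table. Hcrt, Pmch, Agrp, Sim1, Otp, Gal, Kiss1 and Ghrh were not matched to a row, so that little of the list speaks for hypothalamic tissue itself. The part of tissue makeup in the values of Nnat and Dlk1 was not tested. Of the 9 monoaminergic markers with a row, which include Ddc, 5 were positive and 4 negative with a median of 0.001.

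In the smaller groups every interval included 0 apart from that of Nnat. Peg13, a noncoding RNA inside Trappc9, was at 0.10, standard error 0.09, with a count of 2572 in the authors' deposited table (interval -0.08 to 0.28, p = 0.260, DESeq2 adjusted p = 0.9997). Trappc9, a gene of vesicle trafficking annotated on the same strand, was at 0.05, standard error 0.09, with a count of 850.0 in the authors' deposited table (interval -0.12 to 0.23, p = 0.556, DESeq2 adjusted p = 0.9997). The growth factor receptor adaptor gene Grb10 was at -0.04, its neighbour Ddc, the enzyme that makes dopamine and serotonin, at 0.04, and the actin nucleator gene Cobl at 0.06 in the authors' deposited table. Mest, a hydrolase-like gene that hosts a microRNA, was at -0.08, standard error 0.11, with a count of 650.5 in the authors' deposited table (interval -0.29 to 0.12, p = 0.428, DESeq2 adjusted p = 0.9997). Copg2, a coatomer subunit gene whose end it overlaps, was at -0.01, standard error 0.09, with a count of 918.7 in the authors' deposited table (interval -0.18 to 0.16, p = 0.899, DESeq2 adjusted p = 0.9997). Retrogenes inside other genes gave 0.09 for Mcts2 in H13, -0.02 for Zrsr1 in Commd1 and -0.03 for Nap1l5 in Herc3 in the authors' deposited table. The hosts had the same sign, with 0.08 for H13, -0.03 for Commd1 and -0.02 for Herc3. Each value of these retrogenes and hosts was smaller than its standard error. Mcts2 lies inside H13 on the same strand, and whether reads of H13 entered its row was not tested. Inpp5f, a phosphoinositide phosphatase gene with an imprinted short variant, was at -0.05, the zinc finger gene Plagl1 at -0.05 and Impact, a regulator of translation, at -0.03 with a count of 3401 in the authors' deposited table.

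Allele labels here are general ones for each gene, and the allele used in these brains was not measured. By these labels, 18 of 24 paternally and 10 of 12 maternally expressed genes with a row were negative in the authors' deposited table. The medians were -0.03 and -0.01. The 6 genes of mixed or isoform-dependent imprint gave 3 of each sign. No difference between the allele groups was tested. Among rows of noncoding members, 4 of 6 were negative, and among coding ones 27 of 36. Bounds of 13 members overlapped those of another member, 4 of them on the same strand, namely Snrpn with Snurf and Peg13 with Trappc9.

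Machinery that sets and keeps imprints gave no call either. Of 34 such genes 30 had a row, with 7 positive and 23 negative, a median of -0.04 and 0 called in the authors' deposited table. None had an unadjusted p under 0.05 from DESeq2, beside 1.50% of all tested rows. The negative share was 76.7%, beside 73.8% of the imprinted genes and 52.6% of all rows, so that lean was not particular to the imprinted genes. Suz12, a Polycomb subunit gene, had the smallest p in the authors' deposited table (-0.18, standard error 0.10, p = 0.074), followed by the chromatin gene Arid4b (-0.15, standard error 0.09, p = 0.103). Dnmt1, the maintenance DNA methyltransferase, was at 0.07, Dnmt3a at -0.03, Zfp57 at -0.06, Zfp445 at -0.02, Trim28 at 0.006 and Ctcf at -0.04 in the authors' deposited table. A further list of 50 genes, reported as imprinted or next to imprinted clusters, had 42 rows for 41 genes. In the authors' deposited table, 19 of these rows were positive and 23 negative with a median of -0.02, 0 were called and 0 were under an unadjusted 0.05, and both Snhg14 rows had its smallest p-values.

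Wald statistics in this table went up with transcript GC content, with a Spearman rho of 0.418 across 13555 genes, which share the same libraries. Imprinted genes had a median GC content of 47.4%, below the 50.3% of all rows. The plot of the statistic by GC content sets the members against that trend. Ube3a (36.9%), Kcnq1ot1 (40.3%) and Zdbf2 (42.3%) were of low GC content, where most rows were negative. Nnat (57.0%), Rtl1 (54.6%) and Dlk1 (53.6%) were of high GC content, where most rows were positive. With GC content and transcript length taken off, the log2 fold change was -0.29 for Nnat, -0.21 for Dlk1 and -0.29 for Snrpn, and -0.08 for Ube3a and -0.07 for Kcnq1ot1. That correction alone, tried after the data were seen, moved the Wald statistic of Snrpn from -3.33 to -3.10 and called 0 of 13555 rows, with 1.03% of rows and 3 of 41 members under an unadjusted 0.05. The corrected statistics were also centred on their median and divided by their empirical spread of 0.682. Snrpn then reached -4.49 and an adjusted p of 0.0319. It was 1 of 3 rows called in that fit (0.0221% of 13555) and the only call among the imprinted genes under the settings tried, while Nnat (0.0853) and Dlk1 (0.165) did not pass. By the log2 fold change with GC content and length taken off, 26 of 41 members were negative, beside 8277 of 15751 rows. The corrected and rescaled statistics gave unadjusted p-values under 0.05 to 5 of 41 members, beside 6.32% of rows with a count of at least 10. Rescaling alone gave them to 7 of 42, beside 4.95%.

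**Figure D4:**
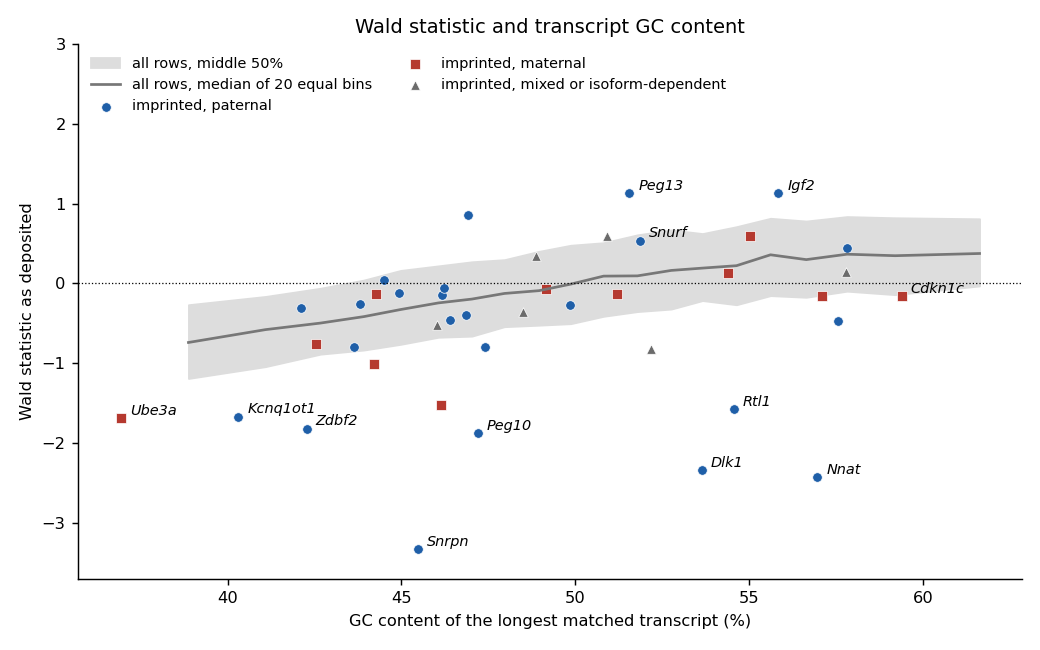
Wald statistic as deposited (y axis) against GC content of the longest matched transcript (x axis) for the 41 imprinted genes with a value; the line and band give the median and the middle 50% of all rows with a count of at least 10 in 20 equal bins. Ube3a, Kcnq1ot1 and Zdbf2 lie at the low end, where the band itself is below 0, and Snrpn, Nnat and Dlk1 lie farther below the band.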

How the data were processed

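Total RNA of 8 brains was sequenced and a single table comparing 5 C9-BAC with 3 wild-type mice was deposited. Trimmomatic, Bowtie2, DESeq and DESeq2 with build mm10 are named, without versions, per the submitters' processing notes; counter, annotation and filters were not given in the sources used here. Deposited columns, per the file headers, are the mean normalized count (a signal: counts divided by size factors, averaged over samples), the log2 fold change with a standard error on that log2 scale, the Wald statistic (a score), and p-values and adjusted p-values from DESeq2. They were checked against each other: the statistic is fold change over standard error, and the adjusted p is Benjamini-Hochberg over 15944 rows. No totals per sample were analysed, so depth and the spread between mice are unknown; the mean counts sum to 9226670. Samples are taken as separate mice from their numbers; otherwise p-values reflect only how these samples vary.

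Symbols came from RefSeq accessions (GRCm38.p6) for 15853 rows and GENCODE M21 for 77 more, with 48 unmatched. Length and GC content are of the longest matched GENCODE transcript (15751 rows, 98.6%). Trends on GC content and log length were cubic least squares fits over rows with a count of at least 10 (Python 3.11.15, numpy 2.4.6, scipy 1.17.1), tested on simulated data. The simulated shifts were larger than any deposited Wald statistic, so that check does not bear on the Snrpn call after rescaling. Members, lists and tests were chosen with earlier results of these data known. By rule, full statistics are given for C9orf72, the 8 members of smallest p and all members that overlap another, and in other lists the 2 smallest p-values are named; genes named beside these were chosen after their values were seen. Alternatives changed the adjustment, the count minimum (10 or 100), the scaling and the GC and length correction.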

Additional observations from a re-analysis of the deposited data

How the results depend on the processing

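No imprinted gene was called as deposited, nor with p-values adjusted over rows with a count of at least 10 or of at least 100, nor after the Wald statistics were centred on their median and rescaled by an empirical spread, where the lowest adjusted p was 0.0809 (Snrpn). With GC content and length taken off, and the result centred on its median and rescaled by its spread of 0.682, 1 was called. It was Snrpn (adjusted p = 0.0319, statistic -4.49), among 3 of all 13555 rows (0.0221%). With that correction but no rescaling, an alternative chosen after seeing the data, 0 members were called and 3 had an unadjusted p under 0.05 (beside 1.03%). The number of imprinted genes with an unadjusted p under 0.05 went from 3 to 7 after rescaling (beside 4.95% of all rows with a count of at least 10), to 5 with GC content and length taken off and rescaled (beside 6.32%), and to 1, Nnat, among those with a count of at least 100 (beside 1.60%). Rescaling alone used a median of -0.0368 and a spread of 0.789. Members under a count of 10, such as Rtl1, are in the member counts but not in these shares. Of the alternatives for counts and medians, 35 stayed within the limits set, and the 4 others are those just given. The cluster medians moved by less than the median standard error of 0.0985. Their signs changed for Snurf-Ube3a (0.004 with a count of at least 100) and Gnas (-0.03 with GC content and length taken off). Machinery genes and further imprinted genes gave 0 calls both as deposited and adjusted over rows with a count of at least 10. No paired analysis was possible because the table holds no values of single samples and the genotypes share no replicate numbers; for the same reason leaving out single mice was not run. Depth limits rows of low count, where standard errors were smallest.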

Other observations

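The insulin-like growth factor axis, on which Igf2, Igf2r and Grb10 act, was even between signs. Of 18 genes, 9 were positive and 9 negative in the authors' deposited table, with a median log2 fold change of 0.001. Irs4, an insulin receptor substrate gene, had the smallest p in the authors' deposited table (-0.08, standard error 0.06, p = 0.153) and the binding protein gene Igfbp6 came next (0.14, standard error 0.10, p = 0.176). The receptor genes Igf1r and Insr were at -0.06 and -0.10 in the authors' deposited table, and the ligand gene Igf1 at -0.06.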
